A study of Homo sapiens with 8 samples.

Results

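Chromosome 2 holds 4530 of the 65646 intervals in which G-quadruplexes (G4s) were mapped by G4 ChIP-seq with the structure-specific antibody BG4. The cells were K562, grown from a myeloid leukemia, and HepG2, which derives from a liver carcinoma. The members are every interval of the 4 deposited lists on that chromosome, so they were selected on the BG4 enrichment that the authors called, and no further filter was applied. The labels name, for each line, 3 libraries of BG4 ChIP and 1 of input, from untreated cells, but the lists give merged intervals only, without a height or a replicate value. A high-confidence peak needed 5 of 8 replicates in K562 and 6 of 9 in HepG2, and a lower-confidence interval needed 2. The paper describes 3 independent experiments per line with technical replicates of each, so replicates of 1 experiment count separately here. On chromosome 2 (hg19, 243199373 bp) there were 491 of 9205 K562 and 743 of 8805 HepG2 high-confidence peaks, and 942 of 19249 K562 and 2354 of 28387 HepG2 lower-confidence intervals. Lower-confidence intervals that contain no high-confidence peak of their own line, 471 in K562 and 1660 in HepG2, are called weak intervals here and are the members just outside the high-confidence threshold.

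A G4 is a four-stranded DNA fold built of stacked guanine tetrads. Stretches with several runs of guanines near each other can fold in this way, and in cells such folds are known mainly from accessible, GC-rich promoters of active genes. BG4 reads the fold and not the sequence, so a list of BG4 intervals depends on the chromatin of the line it was made from. Chromosome 2 carries gene-rich stretches as well as long gene-poor ones, the HOXD cluster of body-patterning genes, and several genes that hepatocytes are known for.

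A high-confidence peak was called common when at least 1 bp of it lay within a high-confidence peak of the second line, and cell-line-only when it touched none of that line's intervals at either confidence. To show what these intervals look like as sequence, the widest peak of at most 300 bp that holds a complete G4 motif and touches no annotated UTR is printed for each kind, once from the 1 kb upstream of a transcription start site (TSS) and once from outside it. All are the plus strand of chromosome 2 (hg19), and the capitals mark the motif, 4 runs of at least 3 guanines with loops of 1 to 7 bases, which appears as runs of C where it lies on the minus strand. The common peak upstream of YWHAQ, a 14-3-3 adaptor gene, lies at chr2:9771128-9771418. The common peak in the first kilobase of ZC3H6, a CCCH zinc finger gene, lies in an intron at chr2:113033617-113033886.
YWHAQ common: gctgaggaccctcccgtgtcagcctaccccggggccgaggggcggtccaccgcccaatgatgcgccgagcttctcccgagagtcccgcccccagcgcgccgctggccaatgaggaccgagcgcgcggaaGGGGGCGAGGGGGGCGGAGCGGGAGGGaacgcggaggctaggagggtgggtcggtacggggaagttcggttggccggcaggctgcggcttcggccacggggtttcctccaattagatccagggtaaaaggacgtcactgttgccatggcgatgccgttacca
ZC3H6 common: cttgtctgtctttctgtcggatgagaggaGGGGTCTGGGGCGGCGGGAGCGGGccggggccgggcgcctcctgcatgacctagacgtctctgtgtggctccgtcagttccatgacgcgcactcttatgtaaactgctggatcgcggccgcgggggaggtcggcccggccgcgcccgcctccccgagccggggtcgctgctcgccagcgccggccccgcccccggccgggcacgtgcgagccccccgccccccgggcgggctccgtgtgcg
Both common examples carry the motif on the plus strand, and their GC contents are 69.4% and 75.2%. The K562-only peak at chr2:232379042-232379259 lies 44 bp upstream of a TSS that is not of a protein-coding transcript. The nearest protein-coding TSS is that of the neuromedin receptor gene NMUR1, and the peak lies 16005 bp downstream of it. The sequence is labelled by that gene but is not from its promoter. The K562-only peak at chr2:220374891-220375085 lies in an intron of GMPPA, a GDP-mannose pathway gene, next to the ion channel gene ASIC4.
NMUR1 K562-only: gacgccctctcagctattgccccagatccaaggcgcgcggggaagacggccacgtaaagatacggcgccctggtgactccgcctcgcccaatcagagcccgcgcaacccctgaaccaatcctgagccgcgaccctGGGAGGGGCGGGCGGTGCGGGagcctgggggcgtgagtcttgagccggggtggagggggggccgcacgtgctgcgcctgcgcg
GMPPA K562-only: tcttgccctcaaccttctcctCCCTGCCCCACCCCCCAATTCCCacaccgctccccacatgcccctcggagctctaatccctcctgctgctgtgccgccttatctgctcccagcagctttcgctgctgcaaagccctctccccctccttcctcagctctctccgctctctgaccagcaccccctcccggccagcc
The motif of the GMPPA peak is on the minus strand. The HepG2-only peak at chr2:223536221-223536369 is centred 82 bp upstream of the TSS of MOGAT1, a monoacylglycerol acyltransferase gene of lipid synthesis, with the motif on the minus strand. The HepG2-only peak at chr2:7061653-7061916 lies in an intron of RNF144A, a ubiquitin ligase gene.
MOGAT1 HepG2-only: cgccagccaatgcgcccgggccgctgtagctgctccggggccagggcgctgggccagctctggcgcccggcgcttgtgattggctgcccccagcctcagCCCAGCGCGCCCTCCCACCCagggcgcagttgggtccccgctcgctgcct
RNF144A HepG2-only: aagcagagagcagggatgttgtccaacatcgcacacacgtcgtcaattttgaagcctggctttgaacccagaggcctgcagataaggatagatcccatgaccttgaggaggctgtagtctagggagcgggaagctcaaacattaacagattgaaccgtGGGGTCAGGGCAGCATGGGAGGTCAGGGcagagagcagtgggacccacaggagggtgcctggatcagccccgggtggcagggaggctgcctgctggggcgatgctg
These examples were chosen for holding the motif, which most peaks of every kind do not. For scale, 1.86% of the 1191002 tiles of 200 bp along chromosome 2 hold such a motif, against 23.2% of the 5197 windows of 200 bp that end at the TSS of a protein-coding transcript there.

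Of the 491 K562 peaks, 329 were common (67.0%, 95% Wilson interval 62.7 to 71.0), 82 met only a lower-confidence HepG2 interval (16.7%), and 80 were K562-only (16.3%, 13.3 to 19.8). Of the 743 HepG2 peaks, 329 were common (44.3%, 40.7 to 47.9), 122 met only a lower-confidence K562 interval (16.4%), and 292 were HepG2-only (39.3%, 35.9 to 42.9). Most K562 peaks of this chromosome were also found in HepG2, whereas less than 50% of HepG2 peaks were found in K562 at high confidence. The common count was 329 from either side, so these shares differ by the list sizes of 491 and 743 peaks. The bar for a cell-line-only peak was also unequal. A K562 peak had to avoid 2354 lower-confidence HepG2 intervals, and a HepG2 peak 942 lower-confidence K562 intervals. On the other chromosomes (1 to 22 and X), the common share was 50.2% for K562 and 54.8% for HepG2, and the cell-line-only shares were 24.9% and 32.3%. Wilson intervals cover the counting of intervals only, since neither read depth nor replicate spread comes with the lists.

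Merging all 4 lists gave 2634 loci on chromosome 2. High-confidence peaks of both lines met at 322 of them (12.2%), and 1463 (55.5%) held nothing but a weak HepG2 interval. On the other chromosomes these shares were 12.4% and 40.5%. Loci with a K562 peak and no HepG2 interval numbered 75 (2.85%, against 5.64% elsewhere), and loci with a HepG2 peak and no K562 interval numbered 265 (10.1%, against 6.94%).

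Location separated common from cell-line-only peaks. The centre of 306 of 329 common K562 peaks lay in the 1 kb upstream of a TSS (93.0%, 89.7 to 95.3), against 41 of 80 K562-only peaks (51.2%, 40.5 to 61.9). The odds ratio was 12.7 (6.88 to 23.3, two-sided Fisher's exact test, adjusted p = 2.16e-16 over the 10 tests on 2 by 2 counts). From the HepG2 side the contrast was 306 of 329 common peaks (93.0%) against 94 of 292 HepG2-only peaks (32.2%, 27.1 to 37.8), an odds ratio of 28.0 (17.2 to 45.7, Fisher's exact test, adjusted p = 4.04e-60). K562-only peaks lay upstream of a TSS more often than HepG2-only peaks, with an odds ratio of 2.21 (1.34 to 3.66, Fisher's exact test, adjusted p = 0.00345). On the other chromosomes the upstream shares were close to these, with 90.7% of common K562, 54.4% of K562-only and 28.8% of HepG2-only peaks. The 82 K562 and 122 HepG2 peaks that met only a lower-confidence interval are in neither group, and 89.0% and 77.9% of them lay upstream. With these peaks counted as cell-line-only, the odds ratios were 5.60 (3.26 to 9.63) in K562 and 15.8 (9.94 to 25.2) in HepG2. The tests treat peaks as independent and describe the lists, not replicate cultures.

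**Figure D1:**
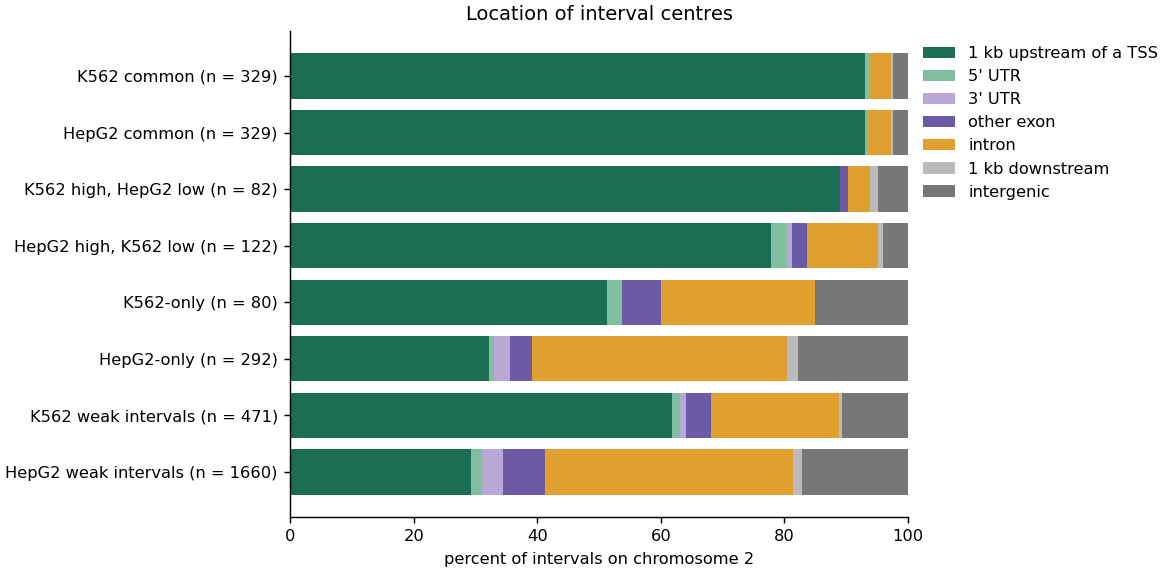
Location classes of interval centres on chromosome 2, in percent of each kind of interval (x axis), for high-confidence peaks by line and status and for weak intervals. Upstream centres make up 93.0% of common peaks, 51.2% of K562-only and 32.2% of HepG2-only peaks, and introns 25.0% and 41.4% of the latter groups.

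Outside the upstream class, common and cell-line-only peaks of both lines lay in introns more often than in any other class. Introns took 20 of 80 K562-only peaks (25.0%) and 121 of 292 HepG2-only peaks (41.4%), but 11 of 329 common K562 peaks (3.34%). Intergenic DNA held 12 K562-only (15.0%) and 52 HepG2-only peaks (17.8%), against 8 common peaks in each line (2.43%). HepG2-only peaks had a median distance of 9995.5 bp to the TSS of a protein-coding transcript and K562-only peaks of 1835.0 bp, while common peaks had medians of 70.0 bp (K562) and 80.0 bp (HepG2).

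Base composition is given by medians, with no test. Common peaks had a median GC content of 70.8% in K562 and 69.4% in HepG2. K562-only peaks had a median of 69.6% (quartiles 60.3 to 76.9), and HepG2-only peaks of 57.2% (52.2 to 63.5). A complete motif was present in 111 of 329 common (33.7%) and 25 of 292 HepG2-only peaks (8.56%), an odds ratio of 5.44 (3.40 to 8.69, Fisher's exact test, adjusted p = 1.65e-14). Within width classes of 50 bp this odds ratio was 2.82 (1.71 to 4.65). In K562, 112 of 329 common (34.0%) and 19 of 80 K562-only peaks (23.8%) held a motif, with an odds ratio of 1.66 (0.944 to 2.91, Fisher's exact test, adjusted p = 0.104). Within width classes the odds ratio was 0.687 (0.352 to 1.34). With peaks that met only a lower-confidence interval counted as cell-line-only, it was 1.09 (0.731 to 1.63). The HepG2 odds ratio in that setting was 4.07 (2.78 to 5.97). Common K562 peaks had a median width of 219 bp and K562-only peaks of 141 bp. The looser motif with runs of at least 2 guanines was present in 86.2% of K562-only and 63.0% of HepG2-only peaks.

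The widest peaks of both lines lay at the same promoter. The K562 peak at chr2:220252556-220253329 (774 bp) and the HepG2 peak at chr2:220252564-220253439 (876 bp) cover the upstream side of DNPEP, an aspartyl aminopeptidase gene, with GC contents of 78.2% and 77.3%. SERTAD2, a transcriptional coregulator gene, and MXD1, the gene of a MAX-binding repressor, also ranked among the 5 widest common peaks upstream of a TSS in both lines. The MXD1 peak was 662 bp wide in K562 and 698 bp in HepG2 and held no complete motif in either. At SERTAD2 the peaks were 758 bp and 697 bp wide and cover the upstream end of the gene as annotated (chr2:64858755-64978139). They were within 218 bp and 195 bp of an annotated TSS there. The nearest TSS of a protein-coding transcript lay further in, at 97310 bp and 97287 bp. The chaperonin pair HSPD1 and HSPE1, mitochondrial protein-folding genes that share a promoter, had a HepG2 peak of 600 bp at chr2:198364565-198365164, which covered 2 separate K562 peaks of 206 bp and 144 bp.

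Among K562-only peaks upstream of a TSS, the widest lay at MBOAT2, a lysophospholipid acyltransferase gene (chr2:9143759-9144205, 447 bp, GC content 82.1%, motif on both strands). The next was at KLF11, a Kruppel-like transcription factor gene (chr2:10184053-10184459, 407 bp), and KLF11 also had the K562-only peak at chr2:10183445-10183670 (226 bp). OSBPL6, an oxysterol-binding protein gene, had a peak of 251 bp with a GC content of 78.9%. Outside that class, the widest was in an intron of NR4A2, an orphan nuclear receptor gene (chr2:157198116-157198470, 355 bp), whose upstream region carried another K562-only peak of 170 bp at chr2:157198977-157199146. Intergenic K562-only peaks of 306 bp and 219 bp had XPO1, the nuclear export receptor gene, and FOSL2, an AP-1 family gene, as the nearest protein-coding genes, at 156016 bp and 37075 bp upstream of their TSSs.

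Among HepG2-only peaks of the upstream class, the widest lay at SEPTIN10, a septin cytoskeleton gene (chr2:110371479-110371943, 465 bp). It was followed by SPTBN1, the gene of a non-erythroid beta spectrin (chr2:54683086-54683506, 421 bp, GC content 76.7%), and further by GCA and TNS1, the latter a focal adhesion gene, at 351 bp and 308 bp. Outside the upstream class, the widest was in an intron of TTC7A at chr2:47261440-47261957 (518 bp). A peak of 463 bp in IWS1, a gene of transcription elongation, had PROC, the gene of the liver-made anticoagulant protein C, as its nearest protein-coding TSS at 15080 bp, and a peak of 444 bp lay at the far end of MOGAT1.

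Repeated cell-line-only peaks within a gene body or its 1 kb upstream were seen at 43 protein-coding genes in HepG2 and 6 in K562. They come from 292 HepG2-only and 80 K562-only peaks, so the larger list has more room for repeats. Overlapping genes count the same peaks again, and neighbouring pieces count as separate peaks. NDUFB3 and HYCC2, for example, both count the HepG2-only peaks at chr2:201936394-201936410 and chr2:201936418-201936531. HS6ST1, a heparan sulfate sulfotransferase gene, held 5 HepG2-only peaks, all in introns. SH3BP4, an endocytosis gene, held 5, of which 4 were intronic. HS1BP3 held 4, and TRAPPC12, a gene of vesicle tethering, held 3, again in introns. VAX2, a homeobox gene of eye development, differed from these in holding its 3 HepG2-only peaks upstream of the TSS, within chr2:71127475-71127692. They were adjacent pieces of 18 bp, 86 bp and 99 bp, at 71127475-71127492, 71127504-71127589 and 71127594-71127692, and may be 1 split stretch. The 6 K562 genes were ASIC4 with 3, and KLF11, TRIB2, TMEM17, TET3 and NR4A2 with 2 each. TET3 encodes a 5-methylcytosine dioxygenase.

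Along the chromosome, intervals were counted in 49 steps of 5 Mb, by their centre, from the short-arm end. HepG2 had more high-confidence peaks than K562 in 37 steps, K562 had more in 7, and 5 were equal. The medians per step were 8 peaks in K562 and 13.0 in HepG2. The fullest K562 steps were step 15 (38 peaks, 46 in HepG2, 75 protein-coding genes), step 6 (34 and 39) and step 20 (25 and 36), and for HepG2 the last step, with 43 against 20 K562 peaks, took the place of step 20 among the 3 fullest. Step 29, from 140000001 to 145000000, held no interval of any list, with 3 protein-coding genes. The lines followed each other across the 48 full steps (Pearson r = 0.844, Spearman rho = 0.840), and both followed the number of protein-coding genes (r = 0.778 in K562 and 0.852 in HepG2). These correlations describe steps that share gene number and base composition.

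**Figure D2:**
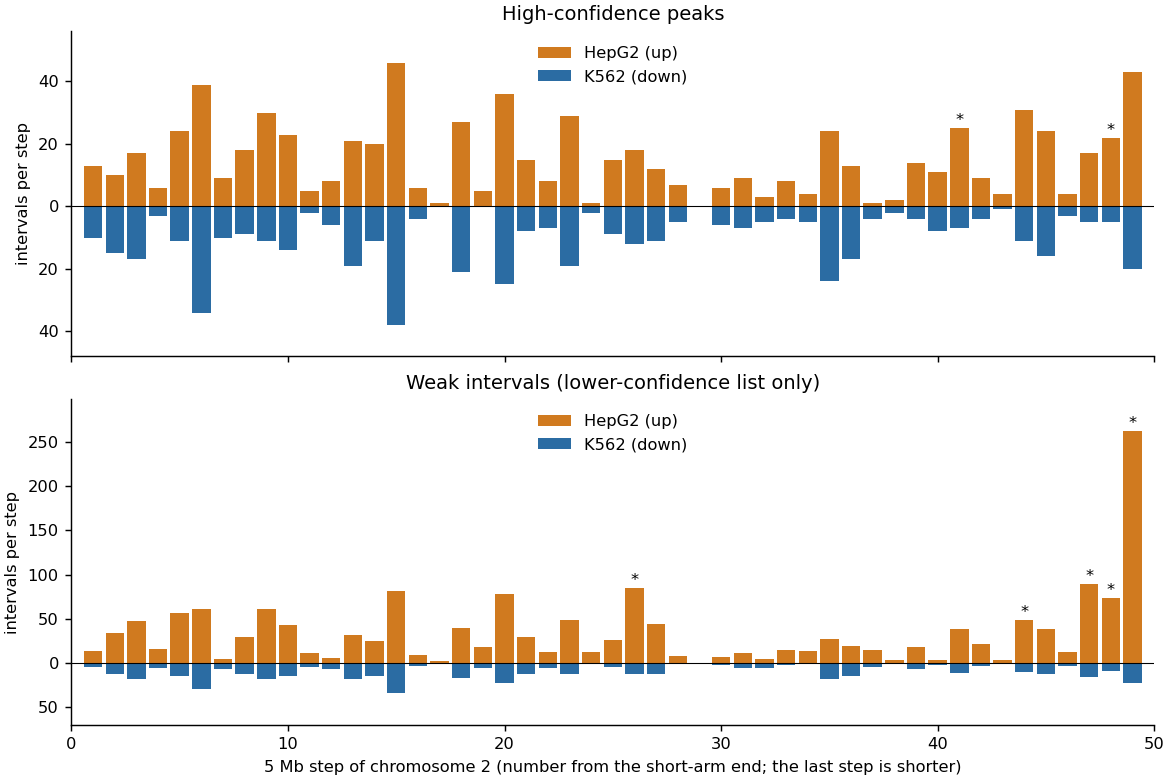
Intervals per 5 Mb step of chromosome 2 (x axis, step number), HepG2 upward and K562 downward, for high-confidence peaks (top) and weak intervals (bottom, another scale), with an asterisk at an adjusted p under 0.05. High-confidence counts of the lines rise and fall together, while the last step stands out with 262 weak HepG2 intervals against 23 in K562.

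A step was called when its balance of the lines differed from that of the rest of the genome (two-sided Fisher's exact test, Benjamini-Hochberg over all steps with at least 10 intervals). In high-confidence peaks, 2 of 37 tested steps of chromosome 2 were called, both with more HepG2, against 2.69% of 409 steps genome-wide in either direction, 1.96% HepG2-rich and 0.733% K562-rich. Step 48 held 5 K562 and 22 HepG2 peaks (odds ratio 4.63, 1.75 to 12.2, exact test, adjusted p = 0.0333), and step 41 held 7 and 25 (3.76, 1.62 to 8.69, adjusted p = 0.0445). All 7 K562 peaks of step 41 were common. With 1 peak per cluster of peaks within 10 kb, or with the rest of chromosome 2 as the reference, neither step was called.

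In weak intervals, 5 of 42 tested steps were called, all HepG2-rich, where genome-wide 11.6% of 457 steps were called, 5.91% HepG2-rich and 5.69% K562-rich. They were step 26 (12 K562 and 85 HepG2 intervals, odds ratio 3.72, 2.03 to 6.81), step 44 (10 and 49), step 47 (16 and 89), step 48 (9 and 73, odds ratio 4.26, 2.13 to 8.51) and step 49 (23 and 262, odds ratio 6.03, 3.93 to 9.24, exact test, adjusted p = 1.64e-23). Steps 44 and 47 to 49 together held 473 weak HepG2 and 58 weak K562 intervals. They are not 1 block, since steps 45 and 46 lie between them and were not called. None of the 5 was called with 1 interval per 10 kb cluster, and 1 step was called with the rest of chromosome 2 as the reference.

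The last step, from 240000001 to the chromosome end, was the densest in weak HepG2 intervals. Its own GC content of 50.9% was the highest of the 49 steps, and it held 38 protein-coding genes. Across the 48 full steps, weak HepG2 counts rose with GC content (Spearman rho = 0.788). The part of base composition in the count of the last step was not tested. Of its 262, 48.1% lay in introns and 17.9% upstream of a TSS, whereas in the other steps 38.7% and 31.3% of the weak HepG2 intervals did. The 23 weak K562 intervals of the same step were upstream of a TSS in 69.6%, and their median GC content was 73.6% against 63.6% in HepG2. The stretch from 241500001 to 242000000 alone held 117 weak HepG2 and 7 weak K562 intervals. Gene bodies with many weak HepG2 intervals were picked after their values were seen. KIF1A, the gene of an axonal transport kinesin, held 31 over 111 kb and no K562 interval of either kind. CROCC2, a ciliary rootlet gene, held 27, and GPC1, the gene of the heparan sulfate proteoglycan glypican-1, held 17 against 1 in K562. In step 26, MYO7B, a brush-border myosin gene, and BIN1, a membrane-curvature gene, each held 20 against 0 weak K562 intervals. BIN1 also held 1 K562 high-confidence peak and none of HepG2.

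By arm, HepG2 had 328 and K562 235 high-confidence peaks on the short arm (ratio 1.40), and 415 and 256 on the long arm (1.62), a difference that did not pass the test (odds ratio 0.861, 0.685 to 1.08, Fisher's exact test, adjusted p = 0.245). The ratio of weak intervals was 2.47 on the short and 4.61 on the long arm, or 3.86 on the long arm without the last step. Peaks of HepG2 were spaced more tightly, with a median gap of 76.5 kb against 133 kb. The largest HepG2 clusters within 10 kb held 6 peaks, around TTC31 and at HS6ST1. The largest K562 cluster held 4 and ran from an intron of GMPPA into ASIC4 (chr2:220374891-220390899).

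Chromosome 2 held more HepG2 than K562 intervals when set beside the other chromosomes. Its ratio of HepG2 to K562 high-confidence peaks was 1.51 and ranked 4 among 23 chromosomes, where the others ranged from 0.277 to 1.89 with a median of 0.909. For weak intervals the ratio was 3.52, which ranked 3, with a median of 1.78 on the others. The odds ratio against the other chromosomes was 1.64 (1.46 to 1.85) for high-confidence peaks and 1.92 (1.73 to 2.13) for weak intervals. Without the last step they were 1.61 (1.43 to 1.82) and 1.70 (1.53 to 1.90). Chromosomes 14 and 20 had higher ratios in both lists. These ratios are a description, since the chromosome was singled out with earlier results known, and the coverage of the chromosomes in the input libraries was not analysed here.

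**Figure D3:**
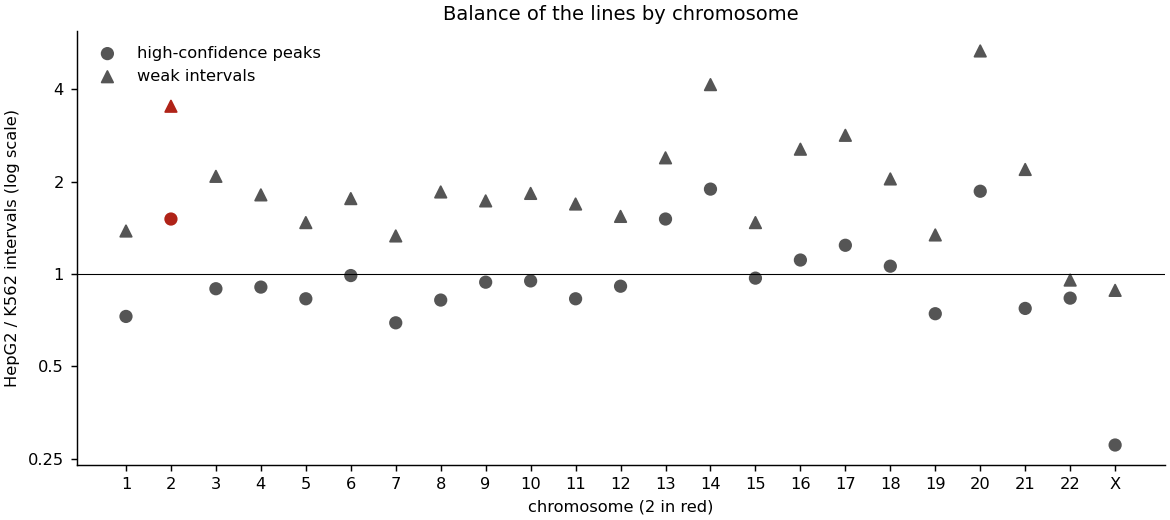
Ratio of HepG2 to K562 intervals (y axis, log scale) on each of 23 chromosomes (x axis), for high-confidence peaks (circles) and weak intervals (triangles). Chromosome 2 (red) lies at 1.51 and 3.52, below chromosomes 14 and 20 in both.

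The surplus of HepG2 intervals was uneven over location classes. Upstream of a TSS, chromosome 2 held 495 HepG2 and 420 K562 high-confidence peaks (ratio 1.18, against 0.795 elsewhere, odds ratio 1.48, 1.30 to 1.70). Outside that class it held 248 and 71 (ratio 3.49, against 1.41, odds ratio 2.49, 1.90 to 3.26). In weak intervals the upstream class was near the other chromosomes, with 485 HepG2 and 291 K562 intervals (odds ratio 1.16, 0.997 to 1.35), while outside it there were 1175 and 180 (odds ratio 3.02, 2.57 to 3.55, or 2.57, 2.18 to 3.03, without the last step). K562 peaks of chromosome 2 lay upstream of a TSS in 85.5%, against 79.3% elsewhere (odds ratio 1.54, 1.19 to 2.00, Fisher's exact test, adjusted p = 0.00110), a call that was lost with 1 peak per 10 kb cluster. HepG2 peaks did so in 66.6% against 68.4% (odds ratio 0.921, 0.785 to 1.08). By chromosome, the K562 share ranked 5 among 23, where the others ranged from 69.7% to 94.4% with a median of 82.1%.

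**Figure D4:**
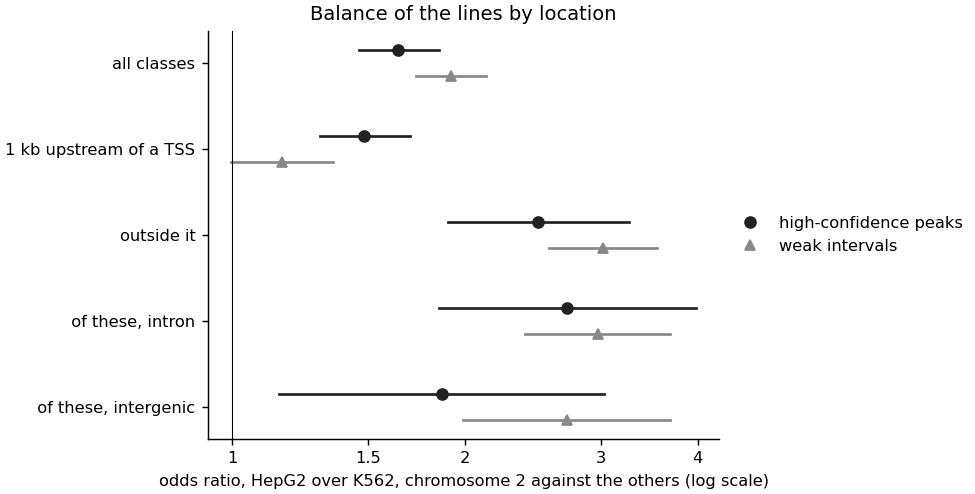
Odds ratio of HepG2 over K562 intervals on chromosome 2 against the other chromosomes (x axis, log scale), with 95% intervals, by location class for high-confidence peaks (circles) and weak intervals (triangles). Outside the 1 kb upstream of a TSS the values are 2.49 and 3.02, and within it 1.48 and 1.16.

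Of 1234 protein-coding genes of chromosome 2, 399 (32.3%) had a K562 and 465 (37.7%) a HepG2 high-confidence peak within 1 kb upstream of a TSS, against 34.0% and 28.9% of the 19756 genes of all chromosomes. Both lines had a peak at 329 genes (26.7%, against 22.8% on the other chromosomes). A K562 peak with no HepG2 interval was found at 25 genes (2.03%, against 3.28%), and a HepG2 peak with no K562 interval at 58 (4.70%, against 2.04%). No interval of either line was found at 490 genes (39.7%, against 45.2%).

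Genes were then read by 12 lists of known function, and their shares are set beside these backgrounds as counts only. All 10 proteasome and chaperone genes had an interval, with high-confidence peaks at 7 in K562 and 8 in HepG2, among them PSMD14, a deubiquitinase of the proteasome lid, CCT7, a chaperonin subunit, and HSPD1. Of 15 DNA repair and replication genes, 9 had K562 and 12 had HepG2 peaks. RRM2, a ribonucleotide reductase subunit, and RIF1, a replication timing factor, had peaks in both lines, while XRCC5, which encodes Ku80 of end joining, and ORC2, of the origin recognition complex, had a peak in HepG2 and no interval in K562. Splicing and RNA-binding genes had 9 and 11 of 15, with NCL, the nucleolin gene, and SNRNP200, a spliceosomal helicase gene, in both lines and SF3B1 at high confidence in HepG2 alone. Broadly expressed transcription factors had 12 of 20 in each line and 9 in both, such as SP3, ATF2 and REL. That list also counts HAT1, a histone acetyltransferase gene, and ZFP36L2, the gene of an RNA-binding protein, both with peaks in both lines, and MYCN and TFCP2L1, which are of narrower expression and had no interval. KLF11, NR4A2 and ZNF513 had peaks in K562 and no HepG2 interval, and KLF7 the reverse.

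Respiratory chain and ribosomal genes were short lists. Of 9 oxidative phosphorylation genes, 3 had a peak in both lines (NDUFS1, COX5B and COX7A2L) and 3 more in HepG2, including the complex III assembly gene BCS1L, and the others had lower-confidence intervals. Of 12 cytosolic and mitochondrial ribosomal protein genes, 2 had a K562 and 4 a HepG2 peak, MRPS9 being the gene with both, MRPS5 had a K562 peak and a lower-confidence HepG2 interval, and 6 had lower-confidence intervals alone.

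The liver list stood at 1 of 22 genes with a K562 peak (4.55%) and 5 of 22 with a HepG2 peak (22.7%), both below the 32.3% and 37.7% of all protein-coding genes of chromosome 2. KHK, the ketohexokinase gene of fructose breakdown, had a peak in both lines. The other 4 had a HepG2-only peak and no K562 interval within 1 kb upstream. APOB, the apolipoprotein of LDL, had it at chr2:21266967-21267124 (158 bp, GC content 60.1%). PROC had it at chr2:128176489-128176591 (103 bp, 58.3%). CPS1, the first enzyme of the urea cycle, had it at chr2:211341403-211341525 (123 bp, 65.0%), and CYP27A1, a sterol hydroxylase of bile acid synthesis, at chr2:219646736-219646919 (184 bp, 71.2%). GCKR, FABP1 and AGXT had a lower-confidence HepG2 interval and no K562 interval, and SLC30A3 had lower-confidence intervals in both lines. AGXT also held 2 HepG2-only peaks in its body or upstream, outside the 1 kb used for the gene states. A further 13 genes of the list, ABCB11 and the 4 listed UGT1A genes among them, had no interval in either line. The list also counts genes that are not particular to liver, SLC30A3, CYP1B1 and TFPI among them, so its shares are not those of liver-specific genes. Its genes are few, and it was written with earlier results of these data known.

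Of 23 blood and immune genes, 3 had a peak in K562 and 3 in HepG2, and 15 had no interval. EPAS1, a hypoxia factor gene, and CAPG, an actin-capping gene, had peaks in both lines. STEAP3, a ferrireductase gene of erythroid iron uptake, had a K562 peak and a lower-confidence HepG2 interval. GYPC, the erythrocyte glycophorin C gene, and BCL11A, a repressor of fetal globin, had none in either line.

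The HOXD cluster with EVX2 had no high-confidence peak at any of its 10 genes, and HOXD1 had the single lower-confidence interval, in HepG2. None of the 5 collagen genes, COL3A1 and COL5A2 among them, had an interval. Of 25 other developmental transcription factor genes, 13 had no interval, as with SIX3, EN1 and PAX3. OTX1 had a common peak, at chr2:63277809-63277958 in K562 and chr2:63277904-63277960 in HepG2. PAX8 and LBX2 had K562-only peaks, of 118 bp and 163 bp, and VAX2 the HepG2-only peaks given above. At DLX2 each line had a high-confidence peak, of 32 bp in K562 and 24 bp in HepG2, but the peaks did not overlap each other. Of 13 cytoskeleton genes, 2 had a K562 and 3 a HepG2 peak, including ACTR3, an Arp2/3 subunit, in both, and TTN and NEB, the giant muscle proteins, had none.

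**Figure D5:**
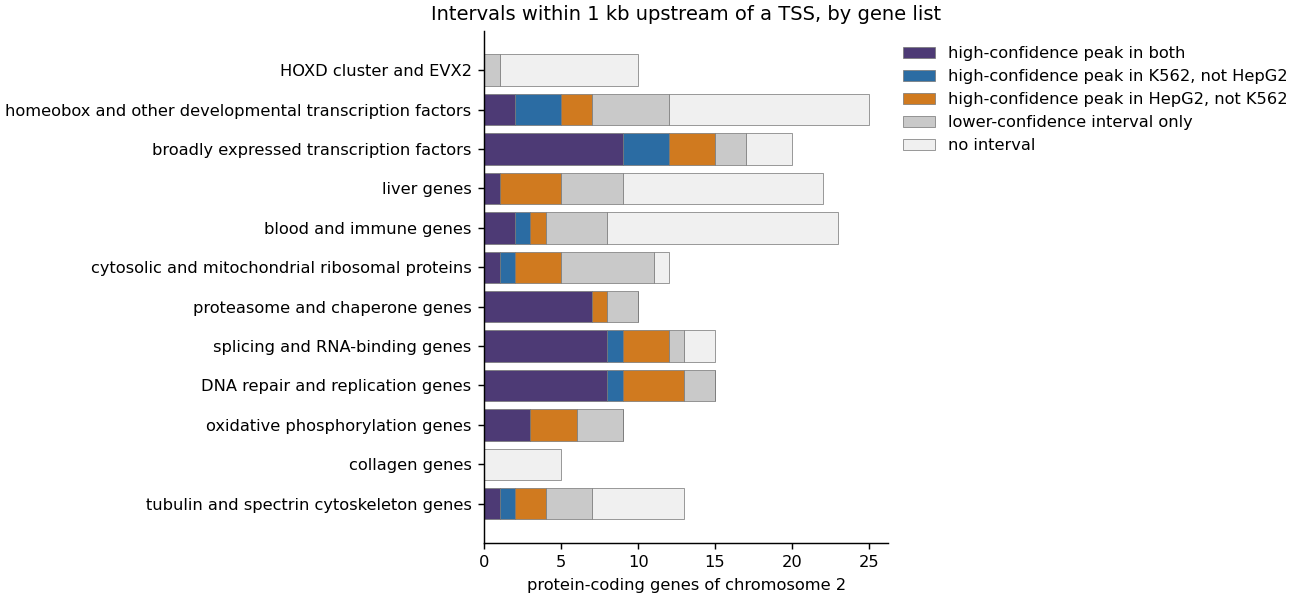
Number of chromosome 2 genes (x axis) in each of 12 lists by the intervals found within 1 kb upstream of a TSS in K562 and HepG2. The collagen list holds no interval, the HOXD list holds 1 gene with a lower-confidence interval, and the liver list holds 1 gene with a peak in both lines and 4 with a peak in HepG2 alone.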

How the data were processed

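G4 ChIP-seq was analysed in K562 and HepG2. Per the labels and the methods, the authors used cutadapt for trimming and BWA for alignment to hg19, discarded duplicate reads, called peaks per replicate with MACS2 and merged replicates with bedtools multiinter. The deposited values are other than counts: interval positions in bp, with no score, so depth and replicate spread are unknown. The replicates merged by the authors, 8 for K562 and 9 for HepG2, outnumber the 3 listed G4 ChIP libraries per line. The paper describes 3 independent experiments per line, each with technical replicates, so the merged replicates are not all independent.

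No interval ran past the end of chromosome 2. Intervals were placed on GRCh37 with GENCODE version 44 lifted to that build (Python 3.11.15, numpy 2.4.6, scipy 1.17.1, pysam 0.24.0, samtools 1.23.1). The location class was taken at the interval centre, with the 1 kb upstream of any TSS first. Gene states used the TSSs of protein-coding transcripts. Tests were two-sided Fisher's exact tests on counts of intervals, adjusted by the Benjamini-Hochberg method, and the 95% intervals of odds ratios assume a normal log odds ratio. Scripts were tested on simulated data.

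The members, the gene lists and the rule for named genes were chosen with earlier results of these data known. The rule names the 3 fullest steps per line, called steps, the 5 widest peaks of each kind, genes with 2 or more cell-line-only peaks of 1 line, and up to 4 examples per list. The split of the line balance by class, the account of the last step and the list genes named beyond 4 were added after values were seen.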

Additional observations from a re-analysis of the deposited data

Results flagged for a closer look

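The contrast of common against cell-line-only peaks differed in size between the cell lines. The odds ratio for the upstream class was 12.7 in K562 and 28.0 in HepG2, a ratio of 0.452 (0.207 to 0.987, a 95% interval that assumes a normal log odds ratio and is not adjusted). For the complete motif the odds ratios were 1.66 and 5.44, a ratio of 0.305 (0.146 to 0.634). The common group had 306 of 329 upstream peaks in both lines. The upstream ratio is therefore the K562-only against HepG2-only contrast given above (odds ratio 2.21, 1.34 to 3.66), inverted, and no further result. For the motif the common counts were 112 and 111 of 329, so that ratio compares the cell-line-only peaks for the most part. Both intervals treat the common peaks of the lines as independent, though nearly the same loci form that group. HepG2-only peaks had a lower median GC content (57.2%) than K562-only peaks (69.6%), and the part of base composition in the motif contrast was not tested.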

How the results depend on the processing

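Of 59 alternative values, 43 were counted as kept. For odds ratios this meant the same direction and side of the threshold, and for shares a value within the spread of the main value. For called steps it meant a count near the main count. This held for weak intervals with 6 in shifted steps and 4 with intervals of at least 100 bp, against 5. The share of common peaks was 61.1% in K562 and 37.7% in HepG2 with at least 50% of a peak covered, 83.7% and 60.7% against the lower-confidence list, 71.3% in K562 with intervals within 500 bp counted, and 48.1% in HepG2 with peaks of at least 100 bp. The K562 motif contrast reversed to an odds ratio of 0.687 (0.352 to 1.34) in width classes of 50 bp, which compare peaks of like width, and passed the threshold in an unadjusted Fisher's exact test at 1.73 (p = 0.0342) with loops of 1 to 12 and at 1.84 (p = 0.0476) with 1 peak per cluster. The upstream share of K562 peaks against other chromosomes fell to an odds ratio of 1.24 (Fisher's exact test, p = 0.140) with 1 peak per cluster. Called steps of high-confidence peaks numbered 4 with shifted steps, 1 with intervals of at least 100 bp, and 0 with 1 interval per cluster or with the rest of chromosome 2 as the reference. For weak intervals the last 2 settings gave 0 and 1. The cause was not tested. The line balance without the last step was added after the data were seen. No paired analysis was possible because the lists merge the replicates of a line.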
